A study of Capra hircus with 10 samples.

Results

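The miR-130 family (miR-130a, miR-130b, miR-301a, miR-301b and miR-454) was followed by small RNA sequencing in the lactating mammary gland of 10 goats of the Alpine breed, 48 ± 2 days after kidding, near the peak of milk yield. The Control goats (libraries L01, L04, L06 and L10, n = 4) kept eating the hay and concentrate diet of the 2 preceding weeks ad libitum. The food-deprived (FD) goats (n = 6, in libraries L02, L03 and L05 and in L07 to L09) received no food but had water for the last 48 h before slaughter. Each library came from the gland of 1 goat. The family was taken by name, as every row called miR-130a, miR-130b, miR-301a, miR-301b or miR-454 with either arm of the hairpin, which gave 9 of the 1804 mature miRNA listed. The goat tables hold 2 arms for each of miR-130a, miR-130b, miR-301a and miR-454 and 1 row for miR-301b, which the tables place on the 3p arm and which is called miR-301b-3p here.

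A miRNA guides the silencing complex to messenger RNA mainly through its seed, the bases next to its 5′ end, and miRNA with the same seed can bind the same sites. The miR-130 family is known from other mammals for repressing PPARG, the nuclear receptor that drives lipid storage, and members have been tied to fat synthesis in mammary epithelial cells, to vessel growth and to TGF-beta signalling. In other mammals the genes of miR-301a and miR-454 lie together inside SKA2, those of miR-130b and miR-301b lie side by side, and miR-130a has a gene of its own.

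The mature sequences show why these miRNA form 1 family. The 3p arms are printed 5′ to 3′ as deposited, in DNA letters, with the seed (bases 2 to 8) in capitals.
miR-130a-3p: cAGTGCAAtgttaaaagggca
miR-130b-3p: cAGTGCAAtgatgaaagggcat
miR-301a-3p: cAGTGCAAtagtattgtcaaagc
miR-301b-3p: cAGTGCAAtgatattgtcaaagc
miR-454-3p: tAGTGCAAtattgcttatagggt

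All 5 of these arms hold the seed AGTGCAA, and no other of the 1804 listed miRNA does. None of the 1070 predicted precursors has it on either arm. Beyond the seed they fall into the miR-130 and miR-301 pairs and miR-454. Counted from the 5′ end, miR-130a-3p and miR-130b-3p differ at 2 of 21 bases (T11A and A13G), and miR-301a-3p and miR-301b-3p at 2 of 23 (A10G and G11A). Between miR-130b-3p and miR-301b-3p 13 of 22 bases are equal, 12 of them in an unbroken run from the 5′ end. miR-454-3p is the one member with T as first base (C1T against miR-130a-3p), and 10 of 21 bases match miR-130a-3p. Reads of the members that differ at 2 bases could be shared between them if the counting allowed mismatches, and the number allowed is not given in the sources used here.

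The family seed overlaps those of 2 other groups found in this gland, miR-148 and miR-19, and the shared letters are in capitals in the next lines.
miR-148a-3p: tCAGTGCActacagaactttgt
miR-148b-3p: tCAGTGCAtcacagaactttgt
miR-19a-3p: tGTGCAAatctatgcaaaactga
miR-19b-3p: tGTGCAAatccatgcaaaactga

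In both miR-148 arms the first 7 bases of miR-130a-3p stand at bases 2 to 8, 1 base further from the 5′ end. In both miR-19 arms 6 bases of the family (GTGCAA) stand at bases 2 to 7. These 4 miRNA serve as the comparison for the family, and no row was named miR-152. In the gene table of goat assembly ARS1.2, MIR454 and MIR301A are neighbours on chromosome 19 and both lie within SKA2. MIR130A lies on chromosome 15 between YPEL4 and SERPING1, and MIR130B and MIR301B are in sequence not placed on a chromosome.

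The family was a small part of the miRNA of the gland. The 5 arms with the family seed together took between 0.0504% and 0.0712% of the counts of a Control library (median 0.0561%) and between 0.0573% and 0.105% of an FD library (median 0.0689%). miR-130a-3p made up most of it, with 54.8% to 62.5% of the family counts in Control and 57.6% to 65.4% in FD libraries. miR-301a-3p followed with 30.9% to 39.0% in Control and 28.7% to 35.5% in FD libraries. The shares of miR-130b-3p, miR-454-3p and miR-301b-3p were each under 5% in every library, the highest being 4.37%, 2.31% and 1.39%. By mean level miR-130a-3p had rank 85, miR-301a-3p rank 108, miR-130b-3p rank 241, miR-454-3p rank 304 and miR-301b-3p rank 368 of the 1804 miRNA. Of the miRNA with overlapping seeds, miR-148a-3p was the most abundant miRNA of all, miR-19b-3p had rank 34, miR-148b-3p rank 54 and miR-19a-3p rank 86. Within the family the order of the 5 levels was the same in each of the 10 libraries, and the normalized counts of miR-130b-3p and miR-454-3p, at 94.0 or more and 58.8 or more, overlapped over goats (the highest of miR-454-3p being 124), as did those of miR-454-3p and miR-301b-3p.

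Levels are given as normalized counts, the deposited counts divided by 1 size factor per library (the median of the ratios to the mean library). Library totals ran from 4495512 to 7506955 in Control and from 5674119 to 9842009 in FD libraries. Of the 9 family rows, 6 passed the filter for testing, a normalized count above 28 in at least 1 library, as did 490 of the 1804 miRNA. The 5 arms with the family seed passed it in both diets. miR-130b-5p passed it through FD library L05 alone, so its test is given with that limit.

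Under food deprivation no family member passed the threshold of the test between diets, a Benjamini-Hochberg adjusted p under 0.1 from the quasi-likelihood test of edgeR. The same holds for the whole table, where 0 of the 490 miRNA passed it (0%). The estimated log2 fold changes, FD over Control, were above 0 for all 5 seed-bearing arms, with a median of 0.44. Over all miRNA tested the median was -0.00041, with 245 above and 245 below 0. The 5 arms were measured in the same goats, with L05 and L08 the highest libraries for each, so their signs are not independent. Unadjusted p-values were under 0.05 for 2 of these 5 arms, miR-130a-3p and miR-301b-3p, both higher in FD libraries. Over all miRNA tested 37 of 490 (7.55%) were higher in FD libraries by that rule. DESeq2's Wald test gave 26 of the 490 an adjusted p under 0.1 (5.31%), none of them in the family. The count of 2 arms rests on single libraries, since it was 0 when L01, L10, L05 or L08 was left out and 1 when L06 or L09 was. Without L02 the count was 3. By method it was 0 with limma-voom and 1 with edgeR's own expression filter. It was 3 with DESeq2, with scaling by library totals alone and with no filter. miR-130b-5p is left out of these counts because of how it passed the filter. In tissue samples such as these, a change in the number of cells that carry a miRNA and a change in its level per cell cannot be told apart.

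**Figure D1:**
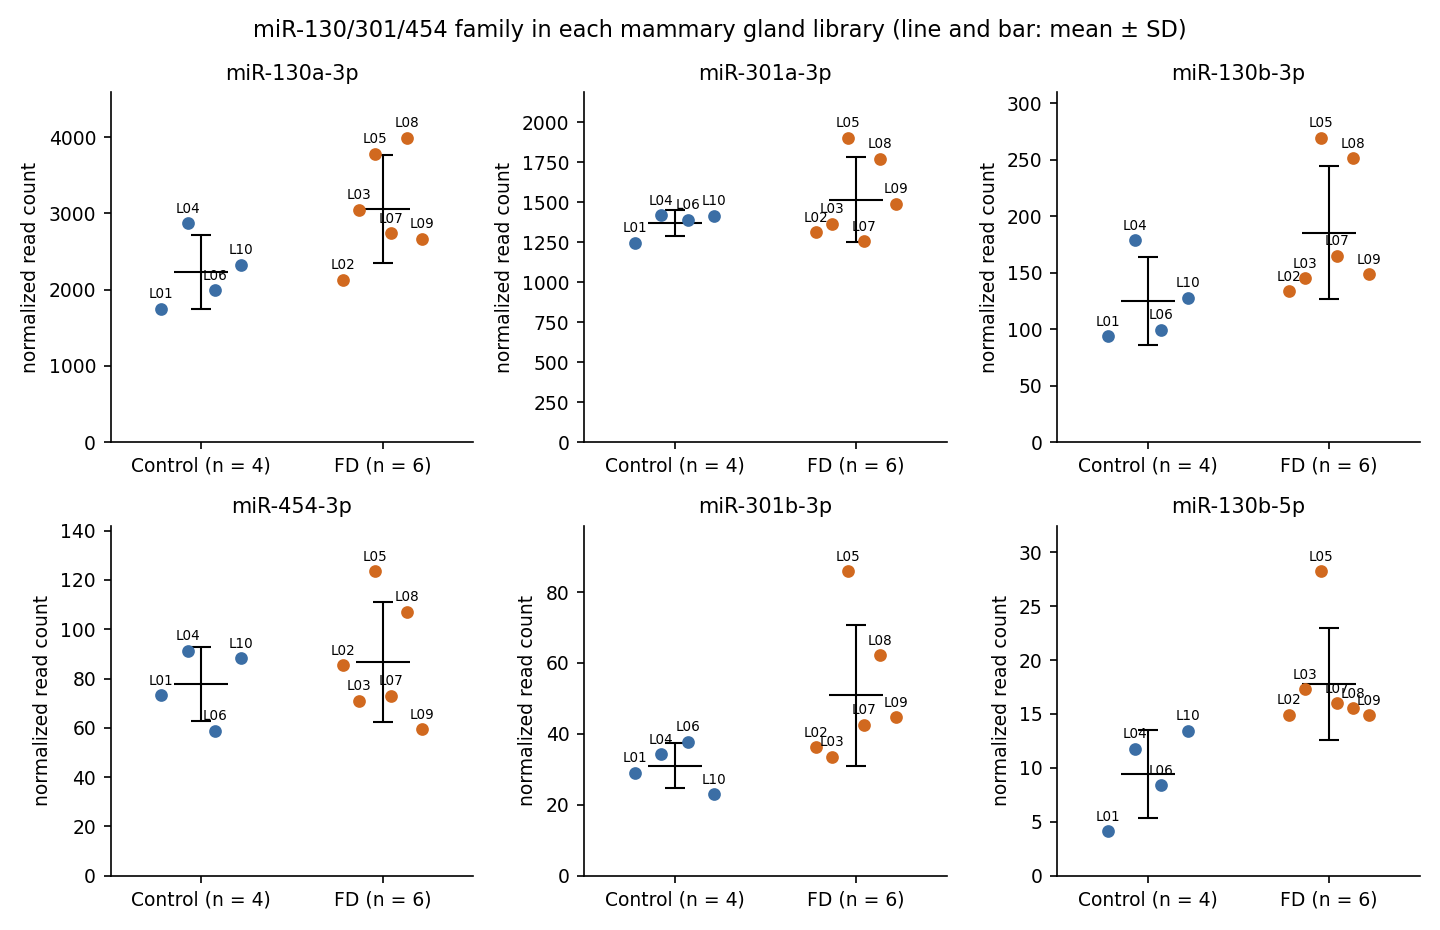
Normalized read count of the 6 tested family rows (vertical axes, linear from 0) in each library, with Control goats in blue and FD goats in orange, and the mean ± SD in black. FD libraries L05 and L08 are the highest for all 5 arms with the family seed, and the diets overlap for each of these arms but not for miR-130b-5p. That last row passed the filter for testing through FD library L05 alone.

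miR-130a-3p, the member with a gene of its own, had normalized counts of 1750 in L01, 2875 in L04, 1996 in L06 and 2326 in L10 among Control goats. In FD goats it ran from 2131 in L02 over a median of 2894 to 3993 in L08. The ranges overlapped, and 3 of the 6 FD libraries lay above every Control library. The means were 2237 ± 486 (SD, n = 4) and 3061 ± 708 (SD, n = 6). The log2 fold change was 0.44 (standard error 0.20, 95% interval 0.0027 to 0.87), and its adjusted p from edgeR was 0.313. It was 0.28 without FD library L08, the lowest value over 17 other settings, all of them above 0.

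miR-130b-3p, the counterpart of miR-130a-3p beyond the seed, had 94.0 in L01, 179 in L04, 99.4 in L06 and 128 in L10. In FD libraries it ran from 133 in L02 over a median of 157 to 269 in L05. Control library L04 lay above 4 of the 6 FD libraries, so the groups overlapped. The means were 125 ± 38.7 (SD, n = 4) and 186 ± 59.2 (SD, n = 6), and the log2 fold change was 0.55 (standard error 0.26, interval -0.020 to 1.13, adjusted p = 0.323, edgeR). It was 0.37 without FD library L08.

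miR-301b-3p, the neighbour of miR-130b in other mammals, had 29.0 in L01, 34.3 in L04, 37.8 in L06 and 23.0 in L10. FD libraries ran from 33.6 in L03 over a median of 43.6 to 85.9 in L05, and 4 of the 6 were above every Control library. With 21 to 104 deposited counts per library it is the least abundant of the 5 arms. The log2 fold change of 0.70 was the largest of these arms (standard error 0.30, interval 0.053 to 1.34, adjusted p = 0.298, edgeR). It was 0.52 without Control library L10, which had the lowest level of all 10.

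The remaining pair, from the SKA2 locus, had the smallest estimated differences of the 6 rows tested. miR-301a-3p had 1247 in L01, 1421 in L04, 1391 in L06 and 1417 in L10, the narrowest spread of the family in Control goats (6.02% of the mean). FD libraries ran from 1255 in L07 over a median of 1428 to 1904 in L05. The log2 fold change was 0.13 (standard error 0.15, interval -0.20 to 0.47, adjusted p = 0.648, edgeR), and 0.019 without FD library L08, 0.077 without L05 and 0.081 without L01. miR-454-3p had 73.3 in L01, 91.2 in L04, 58.8 in L06 and 88.3 in L10 and in FD libraries ran from 59.5 in L09 over a median of 79.2 to 124 in L05. Its log2 fold change was 0.13 (standard error 0.23, interval -0.36 to 0.63, adjusted p = 0.776, edgeR), and -0.011 without L08, 0.029 without L05, 0.040 without L06 and 0.21 without L09. The intervals of both still include changes of the size seen for miR-130a-3p.

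**Figure D2:**
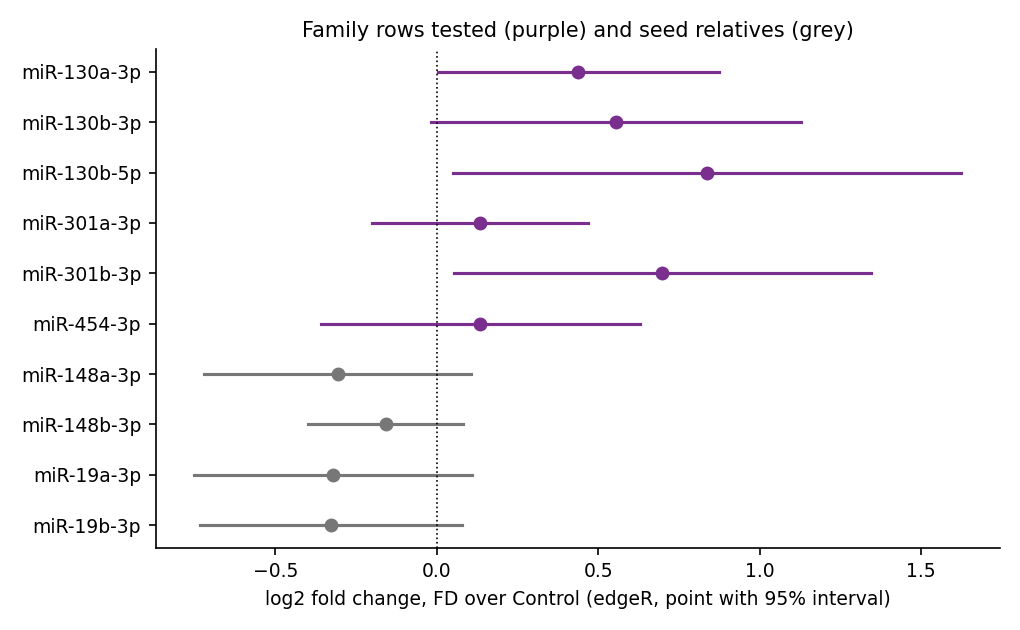
Log2 fold change, FD over Control, of the 6 tested family rows (purple) and of the 4 miRNA with overlapping seeds (grey), as edgeR estimates (points) with 95% intervals (lines). The family rows lie between 0.13 and 0.84 and the others between -0.33 and -0.16, and the intervals of 3 of the 10 rows, miR-130a-3p, miR-301b-3p and miR-130b-5p, lie above 0. Of these, miR-130b-5p, at 0.84, passed the filter for testing through FD library L05 alone, which favours a value above 0.

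The 5p arms, the partner strands of the hairpins, were rare for 3 of the 4 precursors that list one. miR-130a-5p had 5 counts over all libraries against 29754 of its 3p arm, or 0.0168% of both arms (exact Clopper-Pearson 95% interval 0.00546% to 0.0392%). miR-301a-5p had 6 counts against 15405, a share of 0.0389% (interval 0.0143% to 0.0847%), and miR-454-5p 5 against 882, a share of 0.564% (interval 0.183% to 1.31%). Each of these was at 0 in at least 5 of the 10 libraries, where a count of 0 allows up to 3 counts, so no difference between diets was detectable at this depth. These intervals cover counting error only.

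miR-130b was the exception, with 155 counts of its 5p arm against 1766 of its 3p arm, a share of 8.07% (interval 6.89% to 9.38%).
miR-130b-5p: aCTCTTTCcctgttgcactact

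Its own seed, in capitals, differs from that of the 3p arms. The deposited counts of miR-130b-5p were 3 in L01, 12 in L04, 6 in L06 and 14 in L10, and 14 in L02, 18 in L03, 24 in L05, 21 in L07, 26 in L08 and 17 in L09. Normalized, it ran from 4.15 to 13.4 in Control and from 14.9 to 28.2 in FD libraries. All 6 FD libraries were thus above every Control library, also when scaled by library totals or by TMM. Of the 490 miRNA tested 6 had this separation (1.22%), a share against which this row cannot be read, since it was among the 490 only through its highest FD library. The nearest libraries of the 2 diets were L10 at 13.4, from 14 counts, and L09 at 14.9, from 17 counts. The log2 fold change was 0.84 (standard error 0.36, interval 0.050 to 1.62, adjusted p = 0.302, edgeR). A higher FD mean of this row is favoured by the filter itself.

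The balance of the arms of miR-130b did not pass the test between diets with all libraries. The 3p arm took 95.8% in L01, 93.8% in L04, 92.2% in L06 and 90.5% in L10. In FD libraries it took between 89.3% in L03 and 94.2% in L08. The means were 93.1% ± 2.26 (SD, n = 4) and 91.0% ± 1.69 (SD, n = 6), a difference of -2.06 percentage points (p = 0.138, exact permutation of the diet labels, two-sided). The exact intervals of single libraries were wide, from 88.1% to 99.1% in L01. With 1 library left out it ran from -1.16 points without Control library L01 (exact p = 0.369) to -2.92 points without Control library L10 (exact p = 0.0476), and it was -2.69 points without FD library L08 (exact p = 0.0397). On the pooled counts of each diet it was -1.22 points.

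Whether the members moved apart from each other was tested on the log2 ratio of 2 members within a library, which needs no scaling between libraries. None of the 10 pairs of seed-bearing arms had an adjusted p under 0.05 in two-sided exact permutation tests (lowest adjusted p = 0.143), and 2 had an unadjusted p under that value. In the first of these, the ratio of miR-301a-3p to miR-301b-3p on the log2 scale was 5.46 ± 0.318 (SD, n = 4) for Control goats against 4.95 ± 0.302 (SD, n = 6) for FD goats. It was lower than in every Control library in 5 of the 6 FD libraries, a difference of -0.51 (exact p = 0.0238). The ratio of miR-130b-3p to miR-454-3p was higher by 0.43 (exact p = 0.0333), with 5 of 6 FD libraries above every Control library. Within the SKA2 pair the ratio of miR-301a-3p to miR-454-3p differed by 0.0077, with an SD of 0.274 in Control and 0.266 in FD libraries (exact p = 0.957). Between miR-130b-3p and miR-301b-3p it differed by -0.085 (exact p = 0.71) and between miR-130a-3p and miR-130b-3p by -0.11 (exact p = 0.333).

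Against the miRNA with overlapping seeds, all 20 log2 ratios of a family arm to a relative were higher on average in FD libraries, by 0.27 to 0.98 (median 0.71). These 20 ratios share 5 numerators and 4 denominators and so are not independent. Their common direction restates the fold changes, above 0 for all 5 arms and below 0 for all 4 relatives, and adds nothing to them. With 210 arrangements of the diet labels, 1 ratio alone could not pass 0.05 after adjustment over 20, however far apart the diets. None of the 20 had an adjusted p under 0.05 in the exact permutation test (lowest 0.143), and 3 had an unadjusted p under it. Those 3 were miR-130a-3p to miR-19a-3p (difference 0.72, exact p = 0.0381), miR-130a-3p to miR-19b-3p (0.71, exact p = 0.0381) and miR-130b-3p to miR-19a-3p (0.83, exact p = 0.0381). In each of them 4 of the 6 FD libraries lay above every Control library. The relatives themselves had log2 fold changes of -0.31 for miR-148a-3p, -0.16 for miR-148b-3p, -0.32 for miR-19a-3p and -0.33 for miR-19b-3p, with adjusted p-values from 0.421 to 0.457 (edgeR). Control library L10 stood above the other Control libraries, at 38104 normalized counts of miR-19b-3p against 19124 to 22344. Without L10 the difference of miR-130a-3p to miR-19b-3p was 0.53.

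**Figure D3:**
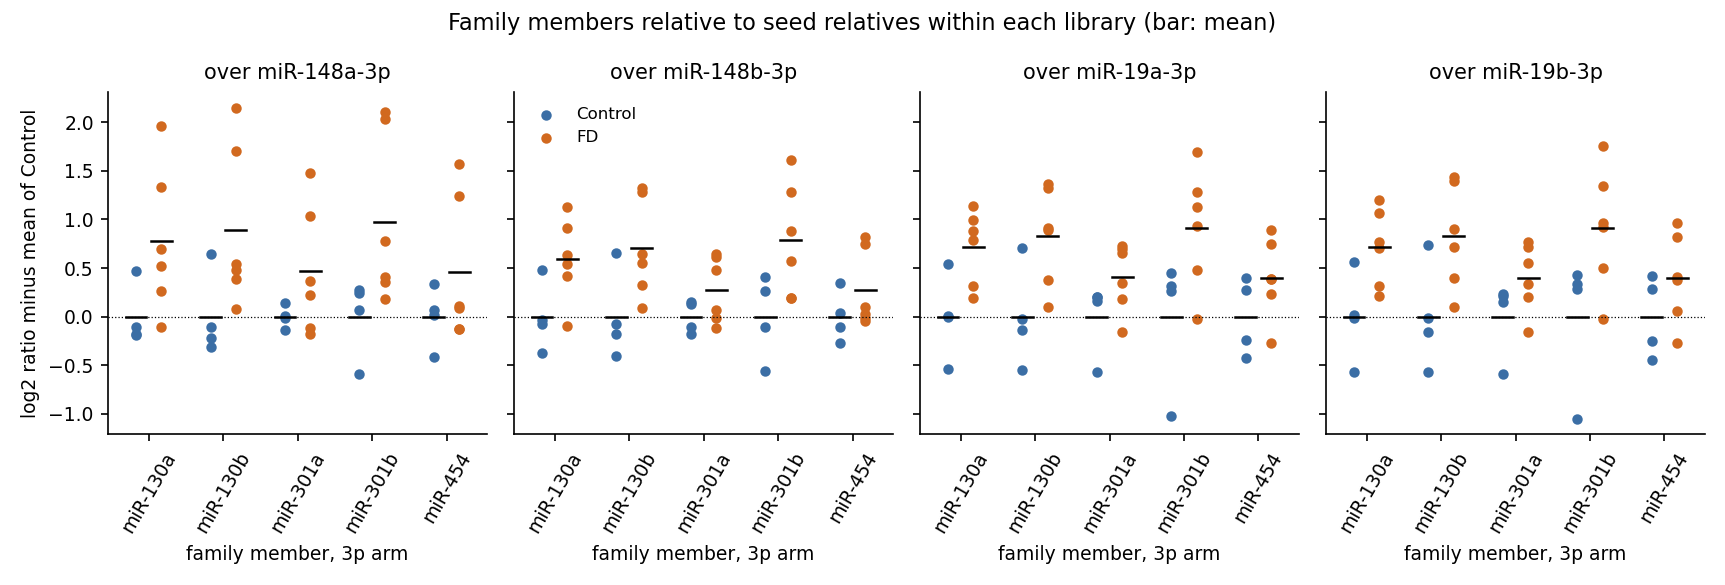
Log2 ratio of each family 3p arm to miR-148a-3p, miR-148b-3p, miR-19a-3p and miR-19b-3p within each library, shown as the distance from the Control mean (vertical axis, log2 units), with Control in blue, FD in orange and group means as bars. The FD means lie 0.27 to 0.98 above the Control means, while the points of the diets overlap in each panel.

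How the members varied together across the 10 libraries depended on L05 and L08 for most pairs. The highest correlation was that of miR-130a-3p and miR-130b-3p, with a Pearson r of 0.953 on log2(normalized count + 1) and a Spearman rho of 0.903 (two-sided permutation p = 6e-05 and 0.00073, or 6e-04 and 0.0073 adjusted over the 10 pairs). The Pearson r of this pair was 0.914 without the 2 libraries farthest from the median of miR-130a-3p, L01 and L08. It was 0.945 without L05 alone and 0.936 without L08 alone. After each diet's mean was subtracted it was 0.928 (exact permutation within diets, adjusted p = 0.00984). Reads of these 2 arms, which differ at 2 bases, could be shared in the counting, and what that adds to r was not tested. By Pearson's r 8 of the 10 pairs had an adjusted permutation p under 0.05, by Spearman's rho 1, and in deviations from the diet means 5. The lowest r among these 8 was 0.680, a value that 4.62% of all 119805 pairs of tested miRNA reached.

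The 2 pairs that share a locus in other mammals had lower values than miR-130a-3p with miR-130b-3p, and lay within the range of the other pairs. For miR-130b-3p and miR-301b-3p r was 0.801 (rho 0.721, adjusted permutation p = 0.0168 and 0.108) and 0.688 in deviations. For miR-301a-3p and miR-454-3p it was 0.680 (rho 0.491, adjusted permutation p = 0.0363 and 0.171) and 0.666 in deviations. Both rest on FD libraries L05 and L08, which lie apart at the top. Without these 2 libraries r fell to 0.359 for the first pair and to -0.162 for the second. Pairs that share no locus fell as well, miR-130b-3p with miR-301a-3p from 0.811 to 0.279 and miR-301a-3p with miR-301b-3p from 0.803 to 0.056. For the pairs of miR-130a-3p r without both L05 and L08 was not computed. The lowest value over all pairs was that of miR-301b-3p and miR-454-3p, 0.508 (adjusted permutation p = 0.134). Without L05 or without L08 the number of pairs past 0.05 fell from 8 to 1. Whether 1 pair is closer than another was not tested.

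**Figure D4:**
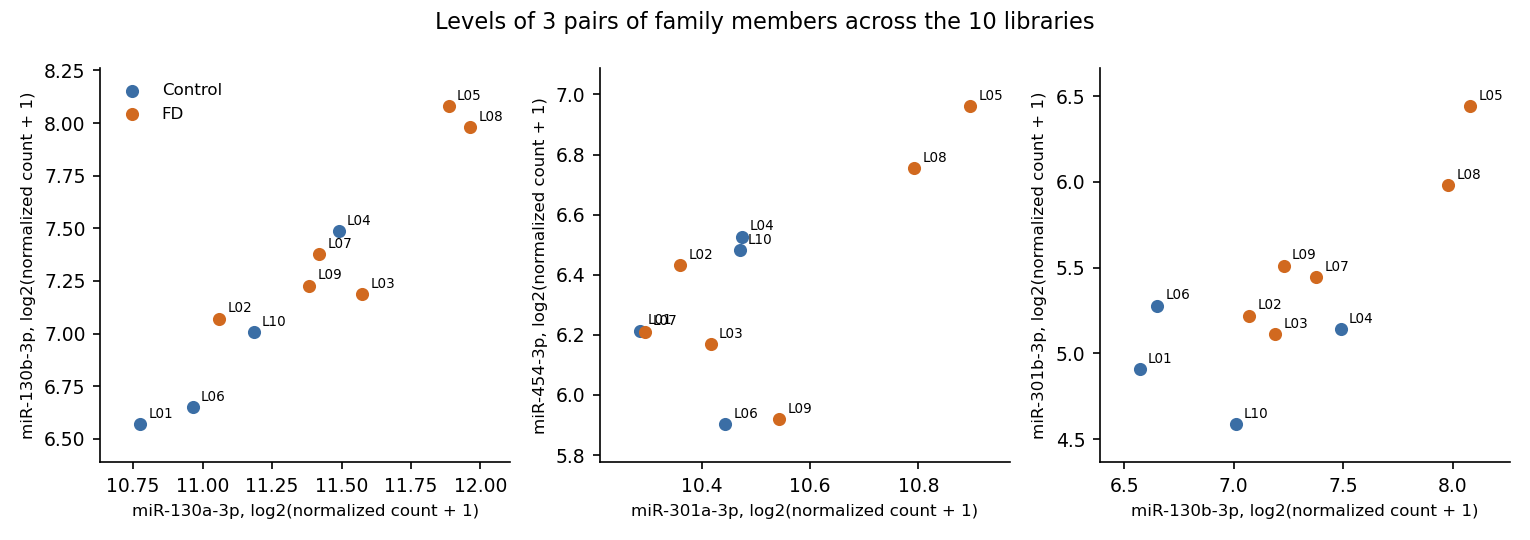
Levels of 3 pairs of members as log2(normalized count + 1) in each library, with Control in blue and FD in orange. L05 and L08 lie at the top in each panel. miR-130a-3p and miR-130b-3p lie along a line over all 10 libraries (r = 0.953), and in the other panels the other 8 libraries scatter.

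L05 and L08 were the 2 highest libraries for all 5 seed-bearing arms, and for 63 of the 490 miRNA tested (12.9%). They were not alike in depth, with L05 having the lowest total of the FD libraries and L08 the highest of all. Marker miRNA of the cell types of the gland were measured as summed normalized counts of a list. The leukocyte list, 4 of 6 found, summed to 15713 in L05 and 18721 in L08, the highest of the 10 libraries. It ran from 8171 to 12636 in Control libraries and from 8349 in L02 to 14199 in L07 in the other FD libraries. The gland's epithelium was marked by 6 miRNA, all found. These 6 miRNA, of the miR-200 family and miR-205, summed to 193005 in L05 and 172861 in L08, the lowest of all. Their sum ran from 220473 to 244168 in Control libraries and from 209489 in L07 to 242470 in L09 in the other FD libraries. The stromal and smooth muscle list, 4 of 5 found, was highest in L05 at 1130600 with 825207 in L08 and 686763 to 924238 in Control libraries. The other FD libraries had 576426 in L02 to 881247 in L03. The 2 endothelial arms of miR-126 had log2 fold changes of 0.37 and 0.31, and ran from 117544 to 144955 in Control and from 136542 to 197735 in FD libraries. The erythroid list, 3 of 5 found, ran from 3750 to 6061 in Control and from 5961 to 8756 in FD libraries. Log2 fold changes within a list did not all share a sign. Those of miR-205-5p (0.41, epithelial), miR-155-5p (-0.12, leukocyte) and miR-145-5p (-0.15, stromal) went against the rest of their lists. In the Control means miR-141-3p held 128297 of the epithelial 230076, miR-143-3p 722366 of the stromal 752537 and miR-155-5p 6142 of the leukocyte 10013. The part of these cell types in the family's levels was not tested.

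Outside the family, the tested miRNA whose order over the 10 libraries was most like that of miR-130a-3p were miR-222-3p (Spearman 0.988) and miR-93-5p (0.976). For miR-130b-3p they were the predicted miRNA chr4_5826 (0.939) and miR-125a-3p (0.915), and for miR-301a-3p let-7d-5p (0.915) and miR-505-3p (0.855). miR-301b-3p was most like miR-146a-5p (0.830) and let-7i-5p (0.794), and miR-454-3p most like miR-3613-5p (0.903) and miR-342-3p (0.879). These are the highest values over all tested miRNA outside the family and are given as a description. Each comes from the same 10 libraries, which differ in depth and in the marker sums above. The 10 miRNA named are all different, but how often the closest miRNA of other tested rows overlap was not counted. Of the 10, miR-222-3p had the largest log2 fold change, 0.78 (standard error 0.28), and let-7d-5p the smallest, -0.035, with adjusted p-values of 0.237 and 0.902 (edgeR).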

How the data were processed

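Mammary gland RNA of 4 Control and 6 FD goats, 1 small RNA library per goat, was sequenced on an Illumina instrument (CASAVA 1.8.2 in the submitters' processing notes). The authors trimmed adapters, kept reads of 17 to 28 nt, mapped them to goat assembly CHIR_1.0 and deposited raw read counts per mature miRNA from the quantifier of miRDeep2, known and predicted, with no molecular identifiers. A further deposited table gives predicted precursors with the miRDeep2 score, of which only the sequences were searched here. A second deposited column per library, marked norm, was not used. Libraries of 1 diet were compared by a chi-square statistic of their counts, which was 50.4 to 412 per degree of freedom, so none was counted as a repeat of another.

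Counts were tested with edgeR 4.0.16 (TMM scaling, quasi-likelihood fit on all 10 libraries, diet as the only term) on the 490 miRNA with a normalized count above 28 in at least 1 library, with Benjamini-Hochberg adjustment over these and a threshold of 0.1. DESeq2 1.42.0 (with a prior on fold changes) and limma-voom 3.58.1 were alternatives, as were other scalings, other filters, counts drawn down to the smallest total and each library left out. The steps were tested on simulated data. Log2 ratios of 2 miRNA in a library (0.5 count added to both) and arm shares were compared by two-sided exact permutation of the diet labels (210 arrangements). Correlations used log2(normalized count + 1) with 100000 permutations. Library totals of 4495512 to 9842009 limit the rare arms most, and PCR reads are not independent molecules. The text names all rows of the family, the miRNA with overlapping seeds, and for each tested 3p arm the 2 outside miRNA with the highest Spearman correlation. The family, the comparison lists and the tests were chosen with earlier results of these data known. Gene neighbours came from the RefSeq gene table of assembly ARS1.2, which is not the build of the counts, so no coordinates are given.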

Additional observations from a re-analysis of the deposited data

Results flagged for a closer look

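Of 24 groups of libraries examined, each a miRNA, the family sum or the arm share of miR-130b in 1 diet, 4 had a library far from the others by Dixon's criterion, which chance meets in about 1 in 20 groups. In FD goats miR-130b-5p was 28.2 normalized counts in L05 against 14.9 to 17.3 in the other 5 libraries. The other 3 were in the miRNA with overlapping seeds. In Control goats miR-19a-3p was 4392 in L10 against 2260 to 2591, and miR-19b-3p was 38104 in L10 against 19124 to 22344. In FD goats miR-19b-3p was 27116 in L03 against 17734 to 20307. No seed-bearing arm of the family had such a library.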

How the results depend on the processing

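No family member had an adjusted p under 0.1 under any of the 17 alternatives run. Over all miRNA the count of calls was 0 in edgeR, 5 with no filter, 26 with DESeq2, and 0 to 1 with a library left out, the 1 arising without FD library L02. At an unadjusted p under 0.05 edgeR had 77 of 490. None of the 10 ratios between members and none of the 20 ratios to the miRNA with overlapping seeds passed an adjusted p of 0.05 under the alternatives run. With a Control or an FD library left out, the 84 or 126 arrangements were too few for 1 ratio alone to pass. The log2 fold change of miR-454-3p was -0.0111 to 0.208 with a library left out, below 0 only without FD library L08. Those of the other 5 rows were above 0 wherever they could be tested (11 of the 17 alternatives for miR-130b-5p). For miR-130b-5p the filter above 28 itself favours this sign, since the row passed it through FD library L05 alone. The differences nearest 0 changed sign with libraries left out, that of miR-130b-3p to miR-301b-3p running from -0.28 to 0.0758 and that of miR-301a-3p to miR-454-3p from -0.0893 to 0.142. The difference in the 3p share of miR-130b ran from -2.92 to -1.16 points with a library left out. The number of correlated pairs was 8, 5 in deviations from the diet means, and 1 to 9 with a library left out, the 1 arising without FD library L05 or L08. The cause was not tested. Depth limits the 5p arms and miR-301b-3p most. No paired analysis was possible because the labels give the goats of the 2 diets no shared replicate numbers.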
